A study of Mus musculus with 18 samples.

Results

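The integrated stress response genes described here are 8 mouse genes, Atf4, Ddit3, Atf3, Trib3, Nupr1, Chac1, Asns and Sesn2, chosen by symbol and followed through 6 RNA-seq libraries. All 8 were found, each as a single RefSeq transcript, among 23421 genes of the expression table, and all 8 passed the filter on low values in every comparison. The integrated stress response is the route by which kinases that sense amino acid shortage, misfolded protein, double-stranded RNA or heme shortage phosphorylate the translation initiation factor eIF2 on its alpha subunit. General protein synthesis then slows, while the mRNA of the transcription factor Atf4 is translated more, and Atf4 switches on genes for amino acid supply, for negative feedback and, when stress persists, for cell death. In embryonic stem (ES) cells the pathway is known as a sensor of amino acid supply and of the load on protein synthesis. Atf4 is controlled largely at translation, a layer that mRNA values do not show.

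The study examined Polycomb repressive complex 2, which methylates lysine 27 of histone H3 and needs its Eed subunit, and Setd2, which trimethylates lysine 36 of the same histone. Each group is 1 library, so no comparison below has a replicate, an error or a test. The ES library labelled Eed KO (also written ES Eed KO, after its label) came from E36 ES cells with an Eed knock-out, and its reference was wild-type E36 ES cells. The EB library labelled Eed KO (EB Eed KO) and its wild-type reference came from embryoid bodies (EBs), aggregates that were made from the same cells by withdrawing leukemia inhibitory factor, hung in drops for 48 hours, given 0.5 µM all-trans retinoic acid from day 2 to day 5 and kept to day 9. E14 ES cells carried a lentiviral pLKO.1 hairpin against Setd2 (shSetd2) or a scrambled hairpin (shCtrl), were selected with puromycin and were taken on day 4 after selection. All cells are of 129/Ola background, and the ES cultures had 15% serum and leukemia inhibitory factor. The sources used here do not give the Eed allele, the number of clones or the number of cultures pooled.

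Expression is in FPKM, fragments counted relative to transcript length and to library size, which allows levels of different genes to be compared. Library depth relative to the wild-type ES library, read from the step size of low values, was lowest in EB Eed KO, at 0.785, and highest, at 1.19, in shCtrl, EB wild type and ES Eed KO. Eed mRNA was 77.8 FPKM in the ES library labelled Eed KO and 72.3 in ES wild type, and 21.8 in the EB library labelled Eed KO and 25.04 in EB wild type, so it does not check these labels and directions drawn from them rest on the labels. Setd2 had 2.59 FPKM in shSetd2 and 16.8 in shCtrl. All 7 ES cell markers examined (Pou5f1, Nanog, Sox2, Zfp42, Esrrb, Klf4 and Tdgf1) were at or above 1 FPKM in all 4 ES libraries, with a sum between 1563 in shSetd2 and 2104 in shCtrl. Their sum was 23.9 in EB Eed KO and 120.02 in EB wild type. A difference is given on the log2(FPKM + 1) scale, on which changes of low genes come out too small. By the size rule used throughout, a gene is called when that difference is at least 1, in the direction of its sign.

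The promoters are shown because Atf4 and its partners of the C/EBP family bind a composite element, the C/EBP-ATF response element, whose core TGATGNAA was searched for on both strands from 250 bases before to 50 bases after each RefSeq transcription start (GRCm38.p6). It was present in 5 of the 8 members' windows and in 3.97% of all 32851 windows. In the 30-base windows below, read 5′ to 3′ on the strand of the gene, capitals mark the match. In Atf3, Chac1, Trib3 and Nupr1 the match lies on the opposite strand and is therefore seen as its reverse complement. The windows lie at chr1:191183425-191183454 (minus strand gene), chr2:119351038-119351067 (plus), chr2:152344028-152344057 (minus), chr7:126625562-126625591 (minus) and chr6:7693214-7693243 (minus).
Atf3: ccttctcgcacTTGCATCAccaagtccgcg
Chac1: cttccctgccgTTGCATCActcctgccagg
Trib3: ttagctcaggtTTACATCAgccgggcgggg
Nupr1: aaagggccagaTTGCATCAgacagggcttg
Asns: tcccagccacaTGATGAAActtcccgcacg

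The first base of the match stood 110 bases before the start in both Atf3 and Nupr1, 193 before it in Chac1, 23 before it in Asns, and at base 15 of the transcript in Trib3. Atf3, Chac1 and Nupr1 held the same 8 letters. No match was found in the windows of Atf4, Ddit3 and Sesn2, which says only that these letters are absent from that stretch around the annotated start. The cyclic AMP response element palindrome TGACGTCA (1.79% of all windows) and the ER stress element (0.119%) were in 0 of the 8 windows. Both of these elements were searched for by exact letters at fixed spacing. A count of 0 therefore does not exclude a copy that differs in a letter, in Ddit3 or in any other member. The 250 bases upstream of Nupr1, the member with the widest range over the libraries, and of Sesn2, the member lower by the size rule in both libraries labelled Eed KO, are printed for comparison, from chr7:126625471-126625720 and chr4:132510457-132510706, both minus strand genes. The match in capitals is the one already shown for Nupr1.
Nupr1: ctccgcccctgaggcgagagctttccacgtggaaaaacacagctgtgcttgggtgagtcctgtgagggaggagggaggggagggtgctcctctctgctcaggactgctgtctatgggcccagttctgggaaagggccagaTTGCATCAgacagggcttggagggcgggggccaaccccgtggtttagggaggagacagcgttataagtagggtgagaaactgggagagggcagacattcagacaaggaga
Sesn2: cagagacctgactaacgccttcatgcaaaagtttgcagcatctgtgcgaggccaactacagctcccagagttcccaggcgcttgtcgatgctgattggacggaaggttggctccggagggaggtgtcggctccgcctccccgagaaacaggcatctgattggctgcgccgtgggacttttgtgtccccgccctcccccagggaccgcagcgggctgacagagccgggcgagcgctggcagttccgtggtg

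**Figure D1:**
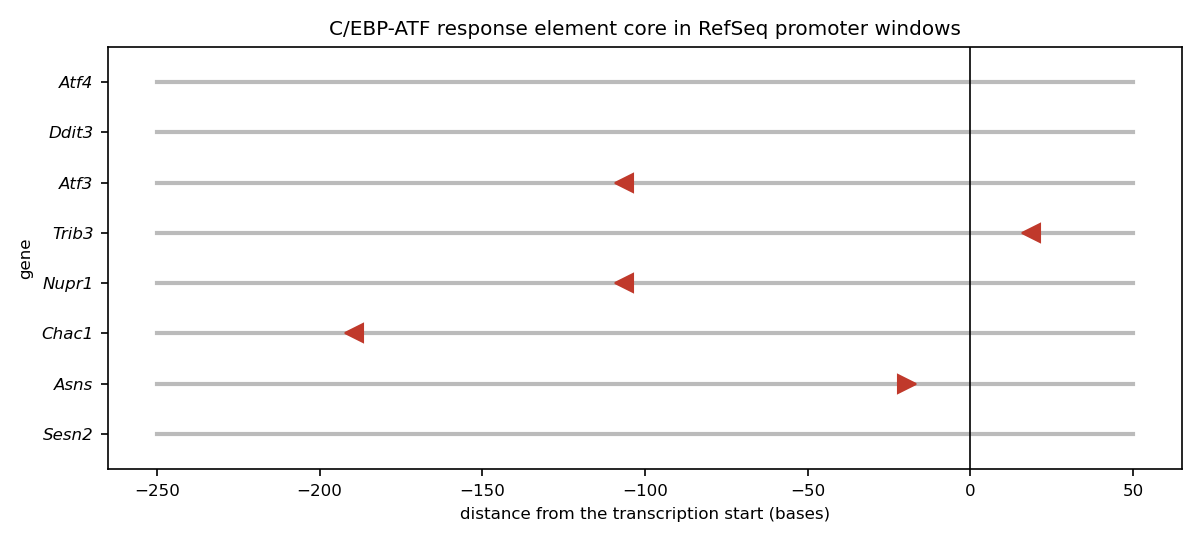
Position of the C/EBP-ATF response element core (triangles, pointing right on the gene's strand and left on the opposite strand) in the RefSeq promoter windows of the 8 members, in bases from the transcription start. The 5 matches lie between 193 bases before the start (Chac1) and base 15 of the transcript (Trib3), and Atf4, Ddit3 and Sesn2 have none in the window.

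In 6 of the 8 genes (Atf4, Trib3, Nupr1, Chac1, Asns and Sesn2) the 2 E14 libraries held the highest and second highest values, and in each of these 6 shCtrl was above shSetd2. Ddit3 and Atf3 were instead highest in the 2 EB libraries; in bulk RNA of such mixed aggregates, fewer cells of a type and less RNA per cell cannot be told apart. Over the 6 libraries the ratio of the highest to the lowest FPKM ran from 3.15 for Atf4 to 16.6 for Nupr1.

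**Figure D2:**
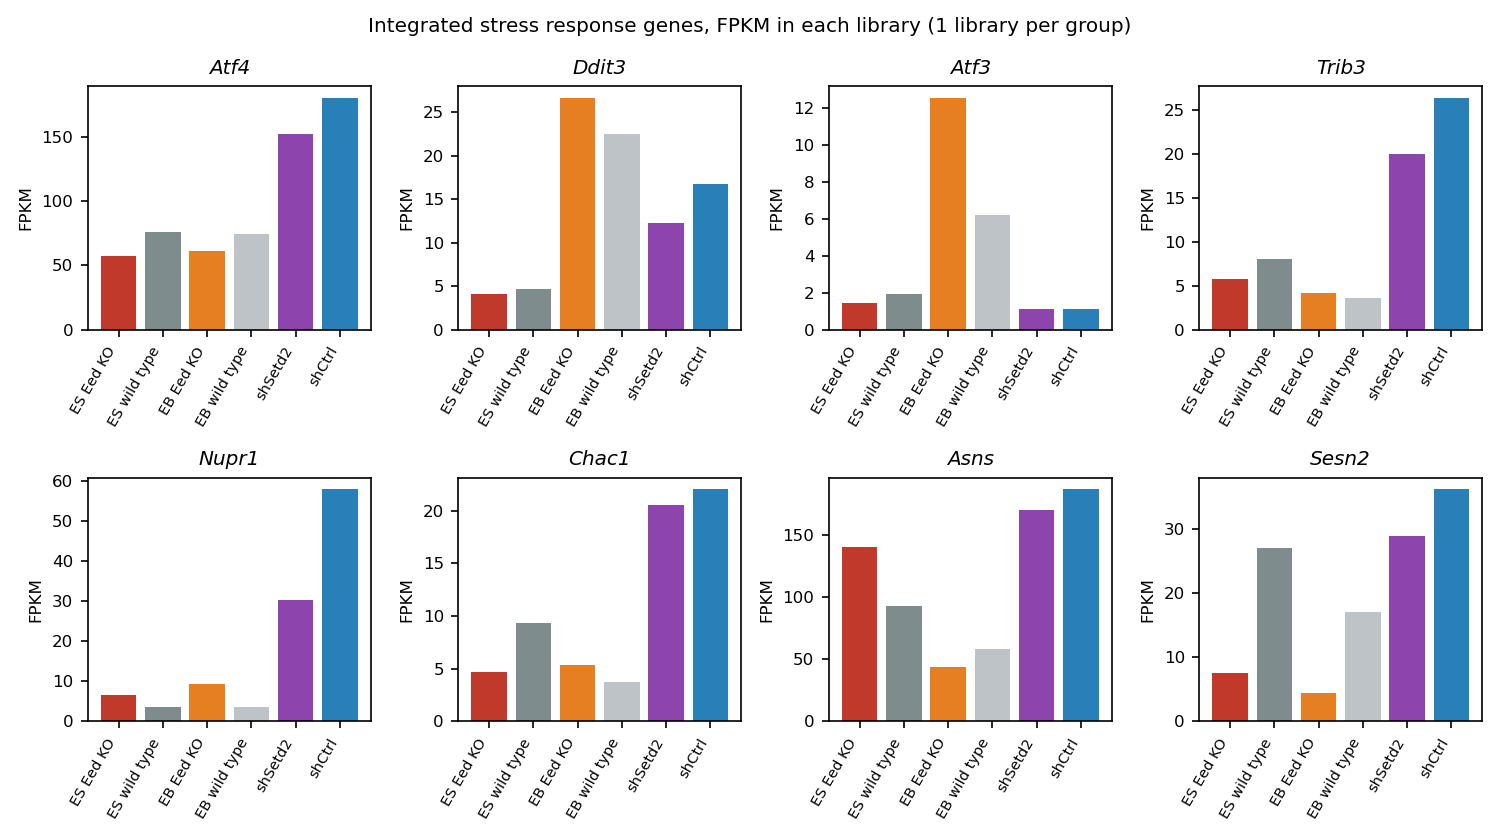
FPKM (vertical axes, linear and starting at 0) of each of the 8 genes in the 6 libraries, 1 bar per library. The E14 bars (shSetd2 and shCtrl) are the tallest for Atf4, Trib3, Nupr1, Chac1, Asns and Sesn2, whereas the EB bars are the tallest for Ddit3 and Atf3.

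Among the transcription factors, Atf4 (NM_009716, mm9 chromosome 15, 80085614 to 80087971) is the central effector of the response. It had 57.2 FPKM in the ES library labelled Eed KO and 76.2 in ES wild type. In EBs it had 61.2 in the EB library labelled Eed KO and 74.2 in wild type, and in E14 cells 152 in shSetd2 and 180.3 in shCtrl. Atf4 was therefore strongly expressed everywhere and had the narrowest range of the 8 genes, with the 4 E36 libraries close together and both E14 libraries above all of them.

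Ddit3 (NM_007837), which encodes the C/EBP family factor CHOP that promotes cell death under lasting stress, had 4.10 FPKM in the ES library labelled Eed KO and 4.68 in ES wild type. It had 26.7 in the EB library labelled Eed KO and 22.5 in EB wild type, and 12.3 in shSetd2 and 16.7 in shCtrl. The 2 EB libraries were the highest, the E14 libraries lay between, and the E36 ES libraries were the lowest. The table places Ddit3 in a locus on mm9 chromosome 10 (126727849 to 126748842) that it shares with Mars1, the methionyl-tRNA synthetase gene also called Mars. The main Mars1 transcript, NM_001003913, had 25.7 FPKM in EB Eed KO and 34.0 in EB wild type but 64.7 in ES Eed KO and 72.6 in ES wild type, the opposite of Ddit3. A minor transcript, NM_001171582, had 4.47 in EB Eed KO and 3.85 in EB wild type but 1.18 in ES Eed KO and 2.43 in ES wild type, which like Ddit3 is higher in EBs. How reads of the shared locus were divided between these genes was not examined here.

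Atf3 (NM_007498, chromosome 1, 192994176 to 193007212), a stress-induced factor that often represses its targets, was the weakest of the 8 in ES cells. It had 1.43 FPKM in the ES library labelled Eed KO, 1.94 in ES wild type, 1.12 in shSetd2 and 1.14 in shCtrl, levels at which few fragments stand behind a value. In EBs it had 12.6 in the EB library labelled Eed KO and 6.20 in wild type. Atf3 was the 1 member with its lowest values in the E14 libraries.

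Trib3 (NM_175093, chromosome 2, 152163161 to 152169796) encodes a pseudokinase that is induced by Atf4 and Ddit3 and restrains them in a feedback loop. Its FPKM was 5.77 in the ES library labelled Eed KO and 8.06 in ES wild type, 4.20 in EB Eed KO and 3.65 in EB wild type, and 20.0 in shSetd2 and 26.4 in shCtrl. Both E14 libraries stood well above the E36 libraries, and the EB libraries were the lowest.

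Nupr1 (NM_019738, chromosome 7, 133766760 to 133768984) encodes a small stress-induced chromatin protein. Its FPKM was 6.67 in the ES library labelled Eed KO and 3.48 in ES wild type, and 9.40 in the EB library labelled Eed KO and 3.53 in EB wild type. In E14 cells it had 30.2 in shSetd2 and 58.0 in shCtrl. Nupr1 was the 1 member that was higher in value in both libraries labelled Eed KO than in their references, and it had the largest gap between cell lines.

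Chac1 (NM_026929, chromosome 2, 119176978 to 119180062) encodes an enzyme that breaks down glutathione. It had 4.72 FPKM in the ES library labelled Eed KO and 9.35 in ES wild type, 5.36 in EB Eed KO and 3.75 in EB wild type, and 20.5 in shSetd2 and 22.1 in shCtrl. Its pattern was the one most like that of Trib3. When each gene's log2(FPKM + 1) values were centred on their mean, the profiles of Trib3 and Chac1 differed by 0.20 (root mean square over the 6 libraries), the smallest of the 28 pairs of members, whereas those of Atf3 and Nupr1 differed by 2.06, the largest.

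Asns (NM_012055, chromosome 6, 7625171 to 7643182), asparagine synthetase, makes asparagine from aspartate and is a classical Atf4 target. It had 141 FPKM in the ES library labelled Eed KO and 93.1 in ES wild type, 43.6 in EB Eed KO and 58.0 in EB wild type, and 170.3 in shSetd2 and 187 in shCtrl. With Atf4 it was the most abundant of the 8, and it ordered the libraries as E14, then E36 ES, then EB.

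Sesn2 (NM_144907, chromosome 4, 132048722 to 132066371) encodes sestrin 2, a leucine sensor that restrains the growth kinase complex mTORC1, and it is known as a target of p53 as well as of Atf4. It had 7.51 FPKM in the ES library labelled Eed KO and 27.1 in ES wild type, and 4.50 in EB Eed KO and 17.1 in EB wild type. In E14 cells it had 28.9 in shSetd2 and 36.3 in shCtrl. The 2 libraries labelled Eed KO were the lowest of the 6.

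**Figure D3:**
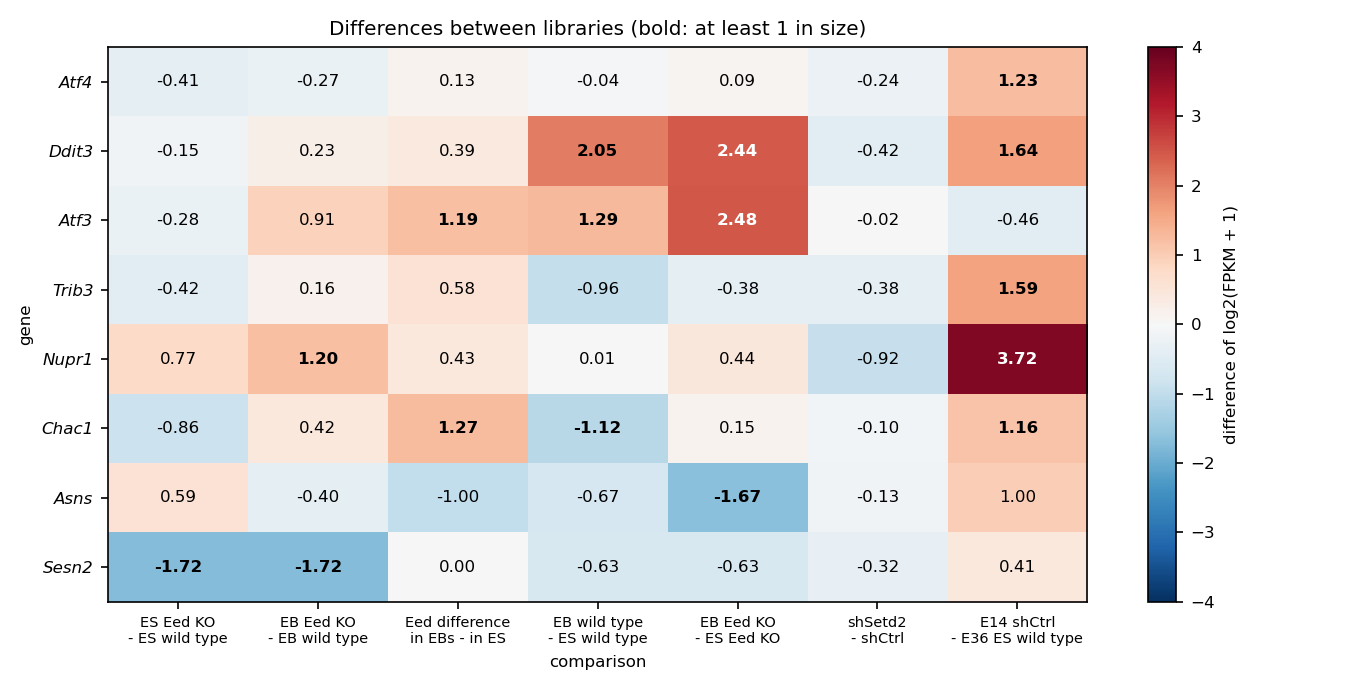
Difference of log2(FPKM + 1) for each gene (rows) in each comparison (columns), red where the library named first is higher and blue where it is lower, with values of at least 1 in size in bold. Sesn2 stands at -1.72 in both Eed comparisons, Ddit3 and Atf3 are higher in EBs, and the column of E14 shCtrl against E36 ES wild type holds 5 genes above 1.

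In the ES library labelled Eed KO against ES wild type, the size rule called 0 of the 8 genes higher and 1 lower. Over the 14772 expressed genes 5.84% passed it, 2.82% higher and 3.01% lower, and with rescaling to equal FPKM totals the split was 3.40% and 2.18%. The lower gene was Sesn2, at -1.72, which ranked 126 from the lowest. The next largest differences were -0.86 for Chac1 and 0.77 for Nupr1, both within the size rule. The median over the 8 genes was -0.34, and over all expressed genes -0.03. Asns was at 0.59, and its chromosome 6 stood at 0.49 relative to all genes in this comparison (median of 529 genes with at least 5 FPKM), which leaves 0.15 for Asns beyond its chromosome. What part the shift of that chromosome has in the value of Asns was not tested. Among cell type markers, the 3 mesoderm markers summed to 20.6 FPKM in ES Eed KO and 4.08 in ES wild type, mostly Hand1 (18.4 and 2.26). T was lower in ES Eed KO (1.36 and 1.51), and Foxf1 was below 1 FPKM in both. The 4 endoderm markers summed to 4.87 in ES Eed KO and 1.43 in ES wild type. The 3 neural progenitor markers summed to 13.0 in ES Eed KO and 28.7 in ES wild type, and the 3 fibroblast collagens to 5.99 and 27.6. The part of these markers in the values of the 8 genes was not tested.

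With E14 shCtrl in place of ES wild type as the control, 6 members were lower in the ES library labelled Eed KO and Nupr1 changed sign, to -2.94. Asns (from 0.59 to -0.41) and Atf3 (from -0.28 to 0.18) also changed sign, within the size rule. Of 12805 expressed genes in that comparison, 5.47% were higher and 3.86% lower. Its libraries also differ in line, hairpin and puromycin, which cannot be told apart from the Eed label here. A p53 list of 20 genes, which does not include Sesn2 itself, was read beside Sesn2. Of the list, 9 genes were lower and 2 higher in the ES library labelled Eed KO against ES wild type. Over all expressed genes 3.01% were lower and 2.82% higher there. In the EB library labelled Eed KO against EB wild type 11 of the list were lower and 2 higher, beside 9.82% and 7.68% of all expressed genes. Trp53, summed over its transcripts, had 76.2 FPKM in ES Eed KO and 284 in ES wild type, and 0.157 in EB Eed KO and 70.7 in EB wild type. In E14 shCtrl 10 of 19 p53 targets were lower and 0 higher than in ES wild type, beside 5.65% and 3.14% of all expressed genes. Trp53 had 75.1 in shCtrl, while Sesn2 was at 0.41. In EB wild type against ES wild type 5 of 20 were higher and 3 lower, near the 19.3% and 14.2% of all expressed genes. Sesn2 was at -0.63. The part of Trp53 in the Sesn2 values was not tested.

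In the EB library labelled Eed KO against EB wild type, the size rule called 1 gene higher and 1 lower. Of all expressed genes 17.5% passed it, 7.68% higher and 9.82% lower, and after upper-quartile rescaling the split was 9.71% and 7.50%. Nupr1 was higher, at 1.20, and Sesn2 was lower, at -1.72, the same size as in ES cells. Atf3 was at 0.91, with 12.6 FPKM in the EB library labelled Eed KO and 6.20 in EB wild type, and it passed the size rule under each of 3 rescalings of the libraries, at 1.03 to 1.08, and at 1.01 with a pseudocount of 0.1. Nupr1 fell short of it with a pseudocount of 5, at 0.76. The median over the 8 genes was 0.20 and over all expressed genes -0.14. Asns was at -0.40 although its chromosome stood at 0.52 relative to all genes.

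Cell type markers also differed between the EB libraries. Of 3 neuron markers, 1 was at or above 1 FPKM in the EB library labelled Eed KO, with a sum of 1.37 and Map2 listed at 0, and 3 in EB wild type, with a sum of 373. The 3 fibroblast collagens summed to 1596 in EB Eed KO and 699.5 in EB wild type, and the 4 endoderm markers to 80.8 in EB Eed KO and 22.6 in EB wild type. The part of cell make-up in the values of the 8 genes was not tested.

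The difference between the Eed differences, EBs minus ES cells, was at least 1 in size for Chac1 (1.27) and Atf3 (1.19), beside 19.2% of expressed genes, 9.13% with a positive sign and 10.1% with a negative one. Chac1 stood at 0.42 in EBs and -0.86 in ES cells, and Atf3 at 0.91 in EBs and -0.28 in ES cells. Both fell within the size rule with a pseudocount of 5. Asns was just inside the size rule at -0.996 as reported, and Sesn2 was at 0.0015.

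Differentiation was followed in wild-type cells and in cells labelled Eed KO. In EB wild type against ES wild type, Ddit3 (2.05) and Atf3 (1.29) were higher and Chac1 (-1.12) was lower, 2 and 1 of the 8 genes, beside 19.3% of expressed genes higher and 14.2% lower (24.2% and 9.66% with rescaling to equal FPKM totals). Trib3 was at -0.96, Asns at -0.67 and Sesn2 at -0.63, so 3 of the genes of metabolism and feedback had negative values within the size rule. Atf4 at -0.04 and Nupr1 at 0.01 were nearly level. With that rescaling, which shifts the median of all genes to 0.26, Chac1 was at -0.87 and no longer called.

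In the EB library labelled Eed KO against the ES library labelled Eed KO, Atf3 (2.48) and Ddit3 (2.44) were higher and Asns (-1.67) was lower, beside 19.7% of expressed genes higher and 18.5% lower (24.5% and 13.8% with equal totals). Atf4 was at 0.09, Chac1 at 0.15, Trib3 at -0.38, Nupr1 at 0.44 and Sesn2 at -0.63. In both comparisons about 1 in 3 or more of all genes passed the size rule (33.5% and 38.3%), so 3 of 8 members is near the background. All 4 E36 libraries also enter the Eed comparisons, so these differences share libraries with those.

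Knock-down of Setd2 in E14 cells moved 0 of the 8 genes past the size rule in either direction, where 2.41% of 12317 expressed genes passed it, 0.706% higher and 1.7% lower (1.09% and 1.34% after upper-quartile rescaling). The values ran from -0.92 for Nupr1 to -0.02 for Atf3. All 8 were below 0 as deposited, as were 70.7% of all expressed genes, but under each of 3 rescalings 5 of 8 were below 0 (median of all genes -0.01 with median-of-ratios rescaling). The median over the members was -0.28 and over all genes -0.13. Nupr1, at 30.2 FPKM in shSetd2 and 58.0 in shCtrl, passed a size rule of a factor of 1.5 and was the 1 member to do so. By that rule 6.60% of all expressed genes were lower.

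Of the 6 comparisons of libraries, that of the control ES libraries of E14 and E36 cells had the most members called, although Ddit3, Atf3, Asns and Sesn2 each differed more in another one. Here line, lentiviral hairpin, puromycin and culture cannot be told apart. In E14 shCtrl against E36 ES wild type, the size rule called 5 of the 8 genes higher and 0 lower. Of 12747 expressed genes 8.79% passed it, 3.14% higher and 5.65% lower (3.99% and 4.22% after upper-quartile rescaling). The 5 were Nupr1 (3.72), Ddit3 (1.64), Trib3 (1.59), Atf4 (1.23) and Chac1 (1.16). Nupr1 had 58.0 FPKM in shCtrl and 3.48 in ES wild type, a ratio of 16.6, and ranked 49 from the highest. Atf4 itself had 180.3 in shCtrl and 76.2 in ES wild type, a ratio of 2.37. Asns was just short of the size rule at 0.9995, a ratio of 2.01, Sesn2 was at 0.41 and Atf3 at -0.46. The median over the 8 genes was 1.19, where that over all expressed genes was -0.10, and it was between 1.07 and 1.34 under the other pseudocounts, filters and scalings. With a pseudocount of 5 Chac1 lost its call, at 0.92, and under each of 3 rescalings Asns gained one, at 1.01 to 1.15. Marker levels differed here too: the 3 neural progenitor markers summed to 7.03 FPKM in shCtrl and 28.7 in ES wild type. Nes had 2.24 in shCtrl and 23.6 in ES wild type, and Pax6 had 1.64 in shCtrl and 4.05 in ES wild type. Sox1 went the other way, with 3.15 in shCtrl and 1.08 in ES wild type. The 3 fibroblast collagens summed to 5.61 in shCtrl, 27.6 in ES wild type and 5.99 in ES Eed KO. The ES cell marker Esrrb had 142 in shCtrl, 46.3 in ES wild type and 108 in ES Eed KO. Of the ES cell markers, Tdgf1 alone was lower in shCtrl, at 363 FPKM beside 459 in ES wild type. Their part in the values of the 8 genes was not tested.

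**Figure D4:**
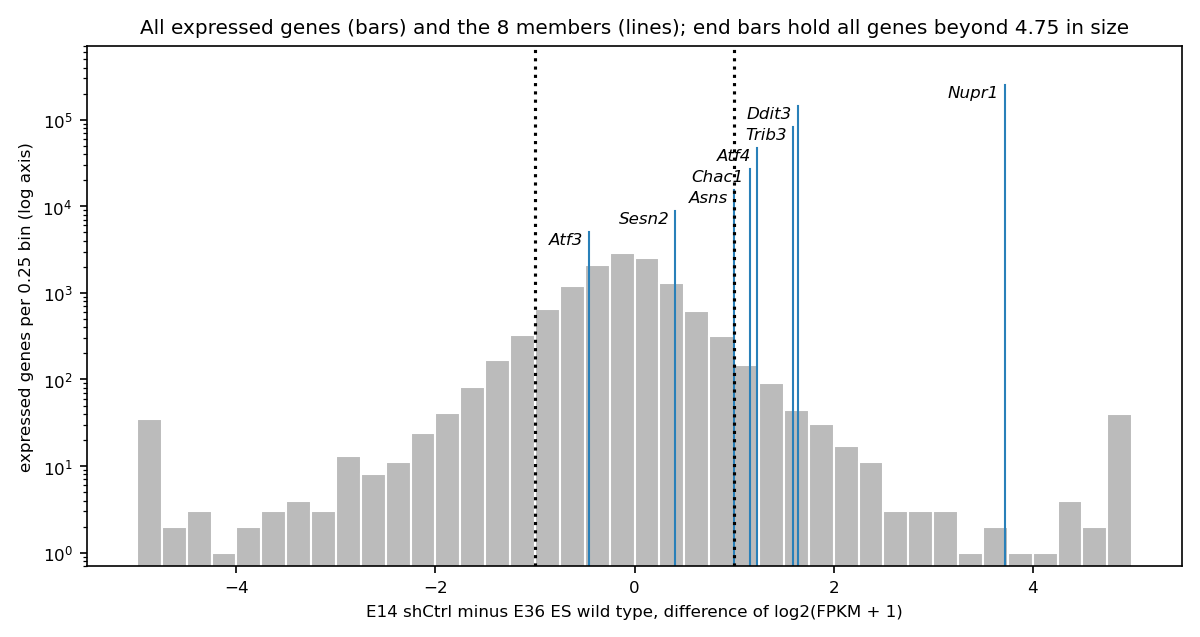
Number of expressed genes (vertical axis, logarithmic) by difference of log2(FPKM + 1) between E14 shCtrl and E36 ES wild type, in bins of 0.25, with a blue line at the value of each of the 8 members and dotted lines at the size rule. Nupr1 at 3.72 lies far to the right, Ddit3, Trib3, Atf4 and Chac1 lie beyond 1, Asns lies next to the line, and Atf3 is the 1 member to the left of 0.

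Upstream of Atf4, 1 of the 4 eIF2 alpha kinases passed the size rule in 1 comparison. Of these kinases (Eif2ak1 to Eif2ak4, which sense heme, double-stranded RNA, misfolded protein and uncharged tRNA in that order), 0 passed the size rule in the comparison of cell lines, in the Setd2 comparison, in either Eed comparison and in EB wild type against ES wild type. Over all expressed genes the share past it in these comparisons ran from 2.41% to 33.5%, so 0 of 4 says little. Eif2ak1 was lower in EB Eed KO against ES Eed KO (-1.12), with 9.08 FPKM in EB Eed KO and 20.9 in ES Eed KO. There 18.5% of all expressed genes were lower. Eif2ak3, also on chromosome 6, had 11.7 FPKM in ES Eed KO and 7.33 in ES wild type. Ppp1r15a, the stress-induced subunit that brings a phosphatase to eIF2 alpha, had 19.8 FPKM in EB Eed KO and 9.32 in EB wild type (1.01), and 13.96 in shSetd2 and 18.2 in shCtrl, beside 10.9 in ES wild type. In EB Eed KO against EB wild type, 1 of 13 phosphatase, eIF2 and eIF2B subunit genes was higher (Ppp1r15a) and 1 lower (Eif2b5, -1.19). These counts are near the 7.68% higher and 9.82% lower of all expressed genes. Of the same 13, 0 were higher and 3 lower in EB wild type against ES wild type, beside 19.3% and 14.2% of all expressed genes. In EB Eed KO against ES Eed KO 0 were higher and 8 lower, beside 19.7% and 18.5% of all expressed genes. The exchange factor subunit Eif2b5 was at -1.04 in wild type and -1.44 in cells labelled Eed KO.

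Among genes that act with or below Atf4, 3 amino acid lists had higher and no lower calls in E14 shCtrl against E36 ES wild type, where 3.14% of all expressed genes were higher and 5.65% lower. Of 11 amino acid transporters 3 were higher and 0 lower, namely Slc6a9, a glycine carrier (1.84), Slc7a1, a cationic amino acid carrier (1.63), and Slc1a5, a glutamine carrier (1.28). Of 9 serine, proline and one-carbon enzymes 2 were higher and 0 lower, Mthfd2 (1.18) and Psph (1.01), and of 20 cytosolic aminoacyl-tRNA synthetases 3 were higher and 0 lower, Sars (1.46), Cars (1.10) and Nars (1.05). Of 19 other stress targets 5 were higher and 2 lower. The list medians were 0.40 for transporters, 0.80 for the serine, proline and one-carbon enzymes, 0.29 for synthetases and 0.51 for the other targets, beside -0.10 for all expressed genes. Of 13 leucine zipper genes that can pair with Atf4, 1 was higher and 2 lower, and their median was -0.50. The higher one was Atf5, with 22.6 FPKM in shCtrl and 4.23 in ES wild type, and the lower ones were Jun (-1.78) and Junb (-1.54).

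Lists of other stress programmes had 0 higher calls in the same comparison. Of 20 genes for endoplasmic reticulum chaperones and the unfolded protein response, 0 were higher and 1 lower, the chaperone Hspa5, with 98.8 FPKM in shCtrl and 203 in ES wild type (-1.03), and the list median was -0.45. Of 10 targets of the oxidative stress factor Nrf2 and of 8 mitochondrial proteases and chaperones, 0 passed the size rule either way, with medians of -0.16 for the Nrf2 targets and 0.23 for the mitochondrial genes. At a share of 8.79% of all genes, 0 of lists this short is near the background. The difference between these lists and the amino acid lists was not tested. In shSetd2 against shCtrl, 0 genes of any of the 11 lists passed the size rule. Over all expressed genes 2.41% passed it there, 0.706% higher and 1.7% lower, so few calls were due in lists of these lengths.

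**Figure D5:**
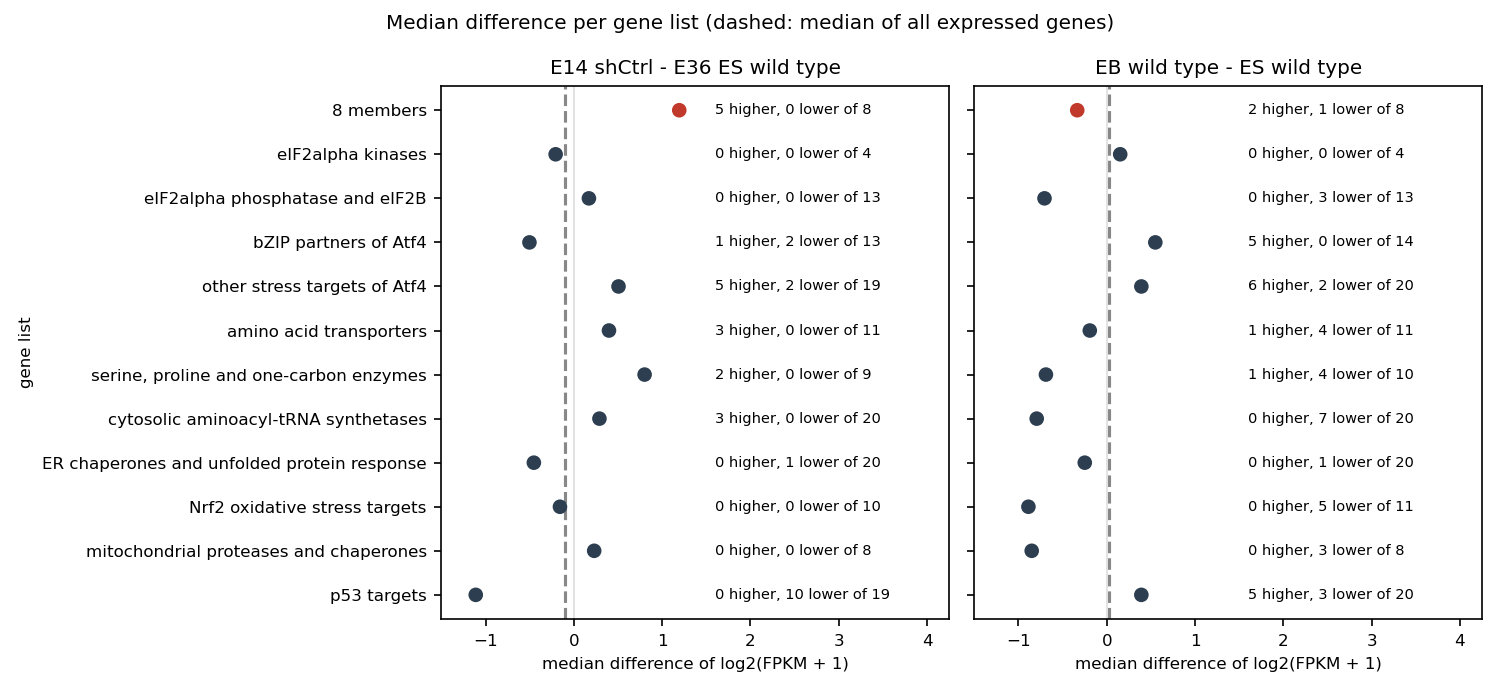
Median difference of log2(FPKM + 1) for the 8 members (red) and 11 gene lists (dark), with the number of genes called higher and lower beside each point and the median of all expressed genes as a dashed line, for E14 shCtrl against E36 ES wild type (left) and EB wild type against ES wild type (right). The members stand at 1.19 on the left and -0.33 on the right, where the synthetases and the Nrf2 targets stand at -0.79 and -0.89.

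In EB wild type against ES wild type the same amino acid lists had more lower than higher calls, where 19.3% of all expressed genes were higher and 14.2% lower. Of 20 synthetases 0 were higher and 7 lower, of 11 transporters 1 was higher and 4 lower, and of 10 serine, proline and one-carbon enzymes 1 was higher and 4 lower. Slc7a3, a cationic amino acid carrier, had 3.15 FPKM in EB wild type and 87.4 in ES wild type. Of 14 leucine zipper genes that can pair with Atf4, 5 were called higher and 0 lower, and 9 were not called, Junb (-0.20) among them. Fos, an immediate early gene, had 63.6 FPKM in EB wild type and 2.04 in ES wild type, and Jun, its AP-1 partner, had 92.9 FPKM in EB wild type and 9.08 in ES wild type. Fos had 155 FPKM in EB Eed KO and 63.6 in EB wild type, and Junb 78.6 in EB Eed KO and 27.7 in EB wild type.

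In ES Eed KO against ES wild type, where 5.84% of all expressed genes passed the size rule, 0 of 13 phosphatase and eIF2 genes, 0 of 10 serine, proline and one-carbon enzymes, 0 of 20 synthetases, 0 of 11 Nrf2 targets and 0 of 8 mitochondrial genes passed it, counts near the background for lists of these lengths. The amino acid carrier Slc38a1 (-1.10) and the chaperone gene Dnajc3 (-1.09) were the lower genes of their lists, and Cebpa (1.01), a C/EBP factor, the higher one of 14 leucine zipper genes. Of 20 other stress targets 2 were higher and 2 lower, with Bbc3, a cell death gene shared with the p53 list, at -2.17. In EB Eed KO against EB wild type, where 7.68% of all expressed genes were higher and 9.82% lower, 0 of 20 synthetases and 0 of 20 chaperone genes passed, while 0 of 11 transporters were higher and 3 lower and 2 of 14 leucine zipper genes were higher and 0 lower.

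Across the 6 libraries, the centred profile of Atf4 was, among the 8 members, the closest to their mean profile, at a root-mean-square difference of 0.13. That of Atf3 lay farthest, at 1.38. Each member is itself part of that mean, so its closeness is partly built in. Among 11207 other genes with at least 5 FPKM in some library, the 5 nearest to that mean profile were Etv1 (0.12), Pop4 (0.13), Mapk3 (0.15), Csad (0.16) and Firre (0.19). Pop4, for example, had 37.1 FPKM in shSetd2 and 40.3 in shCtrl, and between 12.2 and 15.7 in the E36 libraries. Over 6 libraries, such likeness describes these libraries and says nothing of shared control.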

How the data were processed

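Of the series, 6 RNA-seq libraries were used, mRNA libraries from total RNA per the labels' protocols, and the 12 ChIP-seq samples were not analysed here. The authors deposited FPKM per RefSeq transcript, with TopHat, Cuffdiff and mm9 named in the submitters' processing notes. Tool versions and how libraries were scaled are not stated in those sources, and the table gives no fragment counts, so values carry no counting interval. The TruSeq kit does not mark strand, and antisense partners cannot be separated. Accessions were matched to symbols by name through a GRCm38.p6 RefSeq table (29300 of 29851 transcripts), and a gene is represented by its transcript of highest mean. Genes at 1 FPKM or more in at least 1 library compared, or in any E36 library for E36 comparisons, were taken as expressed. Differences of log2(FPKM + 1) for 7 comparisons were computed in Python 3.11.15 with pandas 2.3.3, and the size rule was tested on simulated data. Relative depth came from the most common ratio between libraries of values under 0.1 FPKM, in transcripts spanning over 2000 bases. Promoters of 8 of 8 members are from RefSeq. The members and 11 lists (154 of 155 entries are in the table) were chosen with earlier results of these data known. Genes beyond the members could be named where they were among the 4 largest past the size rule in a list, kinases or phosphatase subunits, the 5 nearest profiles, targeted genes, Trp53 or markers; Mars1 falls outside that rule, and it and the choice among the rest followed sight of the values. Alternatives were 2 pseudocounts, 2 filters, 3 rescalings, summed transcripts, a size rule of a factor of 1.5 and another control.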

Additional observations from a re-analysis of the deposited data

Results flagged for a closer look

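The values of Chac1 and Atf3 had opposite signs in the 2 Eed comparisons, and none of the 4 passed the size rule. Chac1 was at 0.42 in EBs and -0.86 in ES cells, and Atf3 at 0.91 in EBs and -0.28 in ES cells. Trib3 (0.16 in EBs and -0.42 in ES cells) and Ddit3 (0.23 in EBs and -0.15 in ES cells) had the same signs with a smaller difference between them. For Chac1 the difference between the Eed differences was 1.27, and for Atf3 it was 1.19. Over all expressed genes 19.2% were at least 1 in size, 9.13% with a positive sign and 10.1% with a negative one. A count of 2 of 8 members is near that background. With a pseudocount of 5 both fell within the size rule, at 0.80 for Chac1 and 0.76 for Atf3. Each rests on 4 single libraries, and the difference was not tested.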

How the results depend on the processing

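No paired analysis was possible because each group is 1 library, and for the same reason no replicate could be left out. Of 128 counts recomputed under the alternatives, 108 stayed within 1.5 times of the reported count. Some of these 108 could not change. Each member has 1 transcript in the expression table, so summing transcripts leaves its values as they were. Every member already passed the filter on low values, so dropping that filter cannot alter a count of members. Several other counts were 0 as reported and stayed 0. The 108 therefore says little about how stable the counts are. In EB Eed KO against EB wild type the number of members higher, 1 as reported, was 2 with a pseudocount of 0.1, with each of the 3 rescalings and with a factor of 1.5, and 0 with a pseudocount of 5. The share of all expressed genes higher was 7.68% as reported and 11.1% with a pseudocount of 0.1. It was 9.07% to 9.71% with the rescalings, 15.4% with a factor of 1.5 and 3.06% with a pseudocount of 5. In EB wild type against ES wild type a pseudocount of 5 gave 1 higher and 0 lower, a pseudocount of 0.1 gave 2 lower, equal totals gave 0 lower and a factor of 1.5 gave 4 lower. With a pseudocount of 5, 8.41% of all expressed genes were higher and 7.55% lower. The share lower was 18.0% with a pseudocount of 0.1, 9.66% with equal totals and 25.2% with a factor of 1.5. In ES Eed KO against ES wild type a factor of 1.5 gave 2 higher and 2 lower, beside 8.66% of all expressed genes higher and 10.2% lower. E14 shCtrl as the control gave 6 lower, beside 3.86% of all expressed genes, with Nupr1 reversed at -2.94. Under that control Asns (-0.41) and Atf3 (0.18) also changed sign, within the size rule. That control also differs in line, hairpin and puromycin. For the difference between the Eed differences, a pseudocount of 5 gave 0 higher, and a pseudocount of 0.1, equal totals or a factor of 1.5 gave 1 lower, in each case Asns. Of all expressed genes 3.57% were higher with a pseudocount of 5. The share lower with the other settings was 15.0%, 10.5% and 22.0%, in that order. A factor of 1.5 gave 1 lower in shSetd2 against shCtrl, beside 6.60% of all expressed genes. It gave 2 lower in EB Eed KO against ES Eed KO, beside 30.1% of all expressed genes. The cause of these moves was not tested. In E14 shCtrl against ES wild type the count of 5 higher ran from 4 to 6, and 0 were lower, under the alternatives run. The share of all expressed genes higher ran from 1.37% to 8.56%.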

Other observations

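Of 11 targets of the oxidative stress factor Nrf2, 0 were called higher, 5 were called lower and 6 were not called in EB wild type against ES wild type, beside 14.2% of all expressed genes lower. Among the 5 was the glutathione synthesis gene Gclm, with 10.2 FPKM in EB wild type and 50.4 in ES wild type. In EB Eed KO against ES Eed KO 1 was higher and 7 lower, beside 19.7% and 18.5% of all expressed genes. In EB Eed KO against EB wild type 0 were higher and 4 lower, beside 9.82% of all expressed genes lower, including the cystine carrier Slc7a11, with 4.23 FPKM in EB Eed KO and 21.06 in EB wild type, and the thioredoxin reductase Txnrd1, with 13.2 in EB Eed KO and 32.7 in EB wild type. Of 8 mitochondrial proteases and chaperones, 0 were higher and 3 lower in EB wild type against ES wild type, with the chaperonin Hspd1 at 174 FPKM in EB wild type and 492 in ES wild type.

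Single stress genes in the EB library labelled Eed KO went opposite ways against EB wild type. Cth, a cysteine synthesis enzyme on chromosome 3, had 17.0 FPKM in EB Eed KO and 2.14 in EB wild type, and Jdp2, a leucine zipper repressor, had 8.29 in EB Eed KO and 1.14 in EB wild type. Ddit4, a stress-induced inhibitor of mTORC1, had 42.8 in EB Eed KO and 184 in EB wild type, and Stc2, a secreted stress protein, had 2.25 in EB Eed KO and 11.5 in EB wild type. Of the 20 expressed genes on the list of other stress targets, 5 were higher and 5 lower, beside 7.68% and 9.82% of all expressed genes. The list median was -0.000769 beside -0.14 for all expressed genes.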
